A study of Mus musculus with 1 sample.

Results

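The proteins described here are matricellular proteins, small leucine-rich proteoglycans and the fibril-forming fibronectin, all secreted components of the extracellular matrix. The list holds 10 named genes, Fn1, Postn, Sparc, Spp1, Thbs1, Tnc, Fstl1, Dcn, Lum and Bgn, of the 32285 genes in the count matrix, and all 10 had UMIs in the kept cells. Their UMI counts, the numbers of distinct transcript molecules captured per gene, were compared between Col3a1-high and Col3a1-low tumor cells, fibroblast-like cells of the host and myeloid-like cells. The study grew MC38 cells, a mouse colon carcinoma line, under the skin of young female C57BL/6J mice and examined how the proton pump subunit Atp6v0a1 of the tumor cells shapes the tumor environment. Equal proportions of cells from 5 tumors were combined into 1 library, prepared with the v3.1 kit of 10x Genomics for 3′ ends. The library carries the genotype label WT and no name of an shRNA, and it was taken as the shNTC control pool because the methods describe only 2 pools. The knockdown pool was not analysed here, no map ties a cell to its tumor, and there were no replicates, so no test between mice was run.

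Matricellular proteins sit in the matrix without serving as its main scaffold, and they bind cell-surface receptors, growth factors, proteases and collagens. Small leucine-rich proteoglycans coat collagen fibrils and regulate their diameter and spacing, and they also bind growth factors such as TGF-β. In tumors, activated fibroblasts are known as a main source of most of these proteins, whereas osteopontin and thrombospondin 1 are also known products of macrophages and monocytes.

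The matrix held 5307 called cells and 106631000 UMIs, with a median of 9248 UMIs per cell and a range from 511 to 231902. After filters 4443 cells with 92942446 UMIs were left. They were grouped by clustering on variable genes without the 10 listed genes, and the groups were named from fixed marker lists by a rule that was revised after clusters and levels had been seen. Since the names were rebuilt here, they may not match the cell groups of the study. Tumor cells comprised 1652 cells in 3 states. The state with the highest Col3a1 level was called Col3a1-high (404 cells, 9.09% of the kept cells, median 26250 UMIs). The remaining states were pooled as Col3a1-low (1248 cells, 28.1%, median 46816 UMIs), of which 854 were cycling and 394 non-cycling. Myeloid-like cells numbered 1575 (35.4%, median 9004 UMIs) and fibroblast-like cells 42 (0.945%, median 5008.5 UMIs). Smaller groups held 12 pericyte-like cells, 35 endothelial-like cells with a median of only 862 UMIs, and 147 T and NK-like cells with a median of 4498 UMIs. A further 896 cells were unnamed or mixed, and they entered no comparison of groups. Levels are the summed UMIs of a gene per 1000000 UMIs of the group (CPM), given with exact 95% Poisson intervals, and ratios carry exact conditional binomial intervals. All intervals cover counting error only and say nothing about the spread between tumors.

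The sample label gives the cell type as epithelial cells, but epithelial markers were nearly absent from the tumor cells. Of the 8 epithelial markers, 3 had UMIs in Col3a1-high cells, with a summed level of 0.331 CPM and Cdh1 as the most abundant, and Krt18, Krt19, Cldn4 and Cldn7 had 0 UMIs in every tumor state. Of 6 genes listed for MC38 cells, 5 had UMIs in Col3a1-high cells, and Krt18 was at 0. Their summed level was 1289 CPM in Col3a1-high cells (Rhox5 the most abundant), 2210 CPM in the cycling and 1891 CPM in the non-cycling Col3a1-low cells (Tm4sf1), 999.8 CPM in pericyte-like, 818 CPM in endothelial-like, 391 CPM in fibroblast-like, 197 CPM in T and NK-like and 122 CPM in myeloid-like cells, with Tm4sf1 the most abundant in each of these host groups. Fibroblast markers summed to 30305 CPM in the fibroblast-like cells, where all 9 were found and Col1a2 led, against 726 CPM in Col3a1-high cells (Fbn1). Xist, the RNA that marks the inactive X chromosome of female cells, was at 514 CPM in fibroblast-like cells and 758 CPM in myeloid-like cells, and at 5.04 CPM in Col3a1-high and 1.72 CPM in Col3a1-low tumor cells. Col3a1 itself set the names of the tumor states and is no finding between them. Its level was 2775 CPM in Col3a1-high cells, 845 CPM in Col3a1-low cells and 16047 CPM in fibroblast-like cells.

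The listed genes lie on 9 chromosomes. In GRCm38 coordinates of the GENCODE M21 annotation, Dcn (ENSMUSG00000019929, chr10:97479609-97518143, plus strand) and Lum (ENSMUSG00000036446, chr10:97565128-97572703, plus strand) are neighbors 46984 bases apart. Fn1 (ENSMUSG00000026193) spans chr1:71585520-71653200 on the minus strand, Sparc (ENSMUSG00000018593) chr11:55394500-55423183 on the minus strand and Tnc (ENSMUSG00000028364) chr4:63959785-64047015 on the minus strand. On the plus strand lie Postn (ENSMUSG00000027750, chr3:54361109-54391037), Spp1 (ENSMUSG00000029304, chr5:104435118-104441050) and Thbs1 (ENSMUSG00000040152, chr2:118111876-118127133). Fstl1 (ENSMUSG00000022816, chr16:37776873-37836514) and Bgn (ENSMUSG00000031375, chrX:73483602-73495933) are on the plus strand as well. All 10 are protein-coding.

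Promoter windows of 300 bases from RefSeq (GRCm38.p6) were matched for 6 of the 10 genes, with 9 windows for Postn, Sparc, Spp1, Tnc, Fstl1 and Bgn. Fn1, Thbs1, Dcn and Lum had no entry. Shown are the windows that hold the annotated start of Postn, Fstl1 and Bgn, whose levels ran most closely together over the cell groups, and of Spp1, whose levels ran least with theirs. Capitals mark matches on either strand to the TATA box and RUNX motifs, whose letters follow the sequences. The coordinates are chr3:54360857-54361156 for Postn, chr16:37776805-37777104 for Fstl1, chrX:73483351-73483650 for Bgn and chr5:104434861-104435160 for Spp1, all on the plus strand and written 5′ to 3′.
Postn: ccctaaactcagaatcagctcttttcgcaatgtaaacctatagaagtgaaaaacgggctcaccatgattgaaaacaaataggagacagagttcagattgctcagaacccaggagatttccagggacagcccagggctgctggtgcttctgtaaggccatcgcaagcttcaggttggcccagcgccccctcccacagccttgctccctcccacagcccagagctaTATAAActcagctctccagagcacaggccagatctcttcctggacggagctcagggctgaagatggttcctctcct
Fstl1: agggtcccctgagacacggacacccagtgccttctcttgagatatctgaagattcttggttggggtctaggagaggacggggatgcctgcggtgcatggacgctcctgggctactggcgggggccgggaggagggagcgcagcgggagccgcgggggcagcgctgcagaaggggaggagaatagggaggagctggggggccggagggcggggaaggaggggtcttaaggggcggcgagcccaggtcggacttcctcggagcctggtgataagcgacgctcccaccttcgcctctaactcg
Bgn: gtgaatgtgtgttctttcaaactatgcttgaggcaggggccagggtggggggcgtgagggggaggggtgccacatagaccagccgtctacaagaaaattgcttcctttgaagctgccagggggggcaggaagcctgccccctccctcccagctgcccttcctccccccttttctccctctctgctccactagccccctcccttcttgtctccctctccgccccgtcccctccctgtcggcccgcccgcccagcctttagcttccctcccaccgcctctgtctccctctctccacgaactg
Spp1: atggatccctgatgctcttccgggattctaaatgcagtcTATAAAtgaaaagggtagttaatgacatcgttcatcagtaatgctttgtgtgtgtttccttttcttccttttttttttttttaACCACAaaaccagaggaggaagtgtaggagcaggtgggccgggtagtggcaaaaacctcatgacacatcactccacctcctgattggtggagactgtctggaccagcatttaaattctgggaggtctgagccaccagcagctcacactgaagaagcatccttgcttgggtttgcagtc
The TATA box letters, TATAAA, were found in 4 of the 9 windows, against 13.6% of all 32851 promoter windows. These were 1 each of Postn and Spp1 and both overlapping windows of Tnc, which share the same match. ACCACA (RUNX) was found in 2 windows, of Spp1 and Sparc, against 16.8% of all windows. The letters TGANTCA (AP-1), CATTCC (TEAD) and GTCTAGAC (SMAD) were found in 0 of the 9 windows, against 7.81%, 14.7% and 0.213% of all windows. Since the motifs were chosen after the promoter sequences had been seen, the counts beside the shares of all windows test nothing. A match is a description of these letters and says nothing about binding.

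Fn1 encodes fibronectin, a large glycoprotein that assembles into fibrils and ties cells to the matrix through integrins. Its level was 5457 CPM (5222 to 5700) in fibroblast-like cells, 1789 CPM (1765 to 1813) in Col3a1-high tumor cells and 407 CPM (402 to 412) in Col3a1-low tumor cells. Pericyte-like cells had 942 CPM (787 to 1118), myeloid-like cells 347 CPM (338 to 357), endothelial-like cells 273 CPM (180 to 397) and T and NK-like cells 110.0 CPM (88.1 to 136). Fibronectin transcripts were thus highest in fibroblast-like cells and next in Col3a1-high cells. Pericyte-like, Col3a1-low and myeloid-like cells were also above the T and NK-like level. Only myeloid-like and endothelial-like cells, neighbors in the order of levels, did not differ beyond their intervals. The endothelial-like level rests on 27 UMIs in cells with a median of 862 UMIs. The MC38 list was also higher there (818 CPM) than in T and NK-like cells (197 CPM), so it was not set above background.

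Sparc encodes osteonectin, a collagen-binding glycoprotein that assists collagen handling outside the cell. Sparc reached 11627 CPM (11283 to 11979) in fibroblast-like cells, 8824 CPM (8335 to 9334) in pericyte-like cells and 3767 CPM (3394 to 4169) in endothelial-like cells. It was at 1308 CPM (1288 to 1329) in Col3a1-high and 795 CPM (788 to 802) in Col3a1-low tumor cells. All mesenchymal and vascular groups of the host were above the tumor cells. T and NK-like cells (74.6 CPM, 56.8 to 96.2) and myeloid-like cells (55.4 CPM, 51.8 to 59.3) had the lowest levels. Their intervals overlapped, although the myeloid-like over T and NK-like ratio was 0.743 (0.570 to 0.985).

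Postn encodes periostin, a matricellular protein that binds integrins and collagen crosslinking enzymes. Its level was 3431 CPM (3245 to 3625) in fibroblast-like cells and 594 CPM (472 to 737) in pericyte-like cells. Among tumor cells Postn was at 151 CPM (144 to 158) in the Col3a1-high and 47.4 CPM (45.7 to 49.2) in the Col3a1-low state. Endothelial-like cells had 5 UMIs of Postn (50.5 CPM, 16.4 to 118), which did not differ from Col3a1-low cells beyond the intervals. Periostin transcripts in myeloid-like cells were at 10.6 CPM (9.06 to 12.4) against 13.9 CPM (6.94 to 24.9) in T and NK-like cells. The top cell held 18.5% of the Postn UMIs of the Col3a1-high group and 4.92% of those of the Col3a1-low group.

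Tnc encodes tenascin C, a glycoprotein of wound and tumor stroma that modulates cell adhesion. Tnc was at 574 CPM (499 to 656) in fibroblast-like cells, where 1 cell held 38.5% of its 213 UMIs. Pericyte-like cells had 15 UMIs (109 CPM, 60.8 to 179) and endothelial-like cells 2 (20.2 CPM, 2.45 to 73.0). Tenascin C was low in tumor cells, at 4.05 CPM (2.998 to 5.36, 49 UMIs) in the Col3a1-high and 1.28 CPM (1.01 to 1.60, 78 UMIs) in the Col3a1-low state. T and NK-like cells (1 UMI, 1.26 CPM, 0.0320 to 7.04) and myeloid-like cells (0.842 CPM, 0.448 to 1.44) lay at the same level as Col3a1-low cells within intervals. The neighbors pericyte-like and endothelial-like cells did not differ beyond their intervals, nor did endothelial-like and Col3a1-high cells.

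Fstl1 encodes follistatin-like 1, a secreted glycoprotein of the SPARC family. The Fstl1 level was 2596 CPM (2435 to 2766) in fibroblast-like cells, 565 CPM (447 to 705) in pericyte-like cells and 490 CPM (477 to 502) in Col3a1-high cells, and the last 2 did not differ beyond their intervals. Col3a1-low cells were lower, at 193 CPM (189 to 196), and endothelial-like cells had 80.8 CPM (34.9 to 159). The endothelial-like, T and NK-like (25.3 CPM, 15.4 to 39.0) and myeloid-like (22.5 CPM, 20.2 to 25.0) intervals overlapped from neighbor to neighbor, although the T and NK-like over endothelial-like ratio was 0.313 (0.132 to 0.821). Follistatin-like 1 transcripts were thus highest in mesenchymal and tumor cells.

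Thbs1 encodes thrombospondin 1, a platelet, monocyte and stromal glycoprotein that activates latent TGF-β and restrains vessel growth through CD36 and CD47. Its level was 684 CPM (603 to 774) in fibroblast-like cells, 500 CPM (389 to 633) in pericyte-like cells and 323 CPM (221 to 456) in endothelial-like cells, with overlapping intervals between neighbors. Top cells weighed heavily, with 42.1% of the 254 fibroblast-like and 68.1% of the 69 pericyte-like UMIs of Thbs1 in 1 cell each. Myeloid-like cells followed at 115 CPM (109 to 120). Tumor cells stood apart from all of these, at 3.43 CPM (2.98 to 3.93, 209 UMIs) in the Col3a1-low and 1.32 CPM (0.756 to 2.15, 16 UMIs) in the Col3a1-high state. T and NK-like cells had 1 UMI (1.26 CPM, 0.0320 to 7.04), an interval that takes in both tumor levels, so thrombospondin 1 in tumor cells was not set apart from that of T and NK-like cells.

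Spp1 encodes osteopontin, a secreted phosphoprotein that binds integrins and CD44 and is made by many tumor-associated macrophages. Spp1 was at 583 CPM (571 to 595) in myeloid-like cells, 377 CPM (366 to 388) in Col3a1-high and 117 CPM (114 to 120) in Col3a1-low tumor cells. Fibroblast-like cells had 119 CPM (86.1 to 159), not different from Col3a1-low cells beyond the intervals, and 1 cell held 77.3% of these 44 UMIs. Endothelial-like cells had 3 UMIs (30.3 CPM, 6.25 to 88.5) and pericyte-like cells 1 UMI (7.24 CPM, 0.183 to 40.4), and these also overlapped. T and NK-like cells were at 603 CPM (550 to 660), level with myeloid-like cells. Of the 477 Spp1 UMIs in T and NK-like cells, 420 (88.1%) were in 4 cells with at least 10 UMIs each, a limit chosen after their values were seen, and 337 were in the top cell. The other 143 cells had Spp1 at 79.9 CPM.

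Dcn encodes decorin, the proteoglycan that decorates collagen fibrils and binds TGF-β. Its level was close in Col3a1-high and fibroblast-like cells, at 2683 CPM (2654 to 2712) in the Col3a1-high state, 2507 CPM (2349 to 2674) in fibroblast-like cells and 1613 CPM (1603 to 1623) in the Col3a1-low state. The intervals of the first 2 levels overlapped, while that of their ratio lay just below 1. The other groups were far lower, with 242 CPM (155 to 361) in endothelial-like, 166 CPM (138 to 196) in T and NK-like, 111 CPM (106 to 116) in myeloid-like and 79.7 CPM (39.8 to 143) in pericyte-like cells. Endothelial-like did not differ from T and NK-like cells, nor myeloid-like from pericyte-like cells, beyond the intervals.

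Lum encodes lumican, which regulates fibril assembly in cornea, skin and tumor stroma. Lumican transcripts were at 326 CPM (270 to 389) in fibroblast-like cells and scarce elsewhere. Lum was at 9.84 CPM (8.15 to 11.8) in Col3a1-high cells, with 39.5% of 119 UMIs in 1 cell, and at 6.94 CPM (6.30 to 7.64) in Col3a1-low cells. Pericyte-like cells had 1 UMI (7.24 CPM, 0.183 to 40.4), which overlapped both tumor states. T and NK-like cells (1 UMI, 1.26 CPM, 0.0320 to 7.04) overlapped Col3a1-low cells and myeloid-like cells (1.23 CPM, 0.741 to 1.92). In endothelial-like cells 0 of 35 had a UMI, which allows a level of up to 30.3 CPM by the limit of 3 counts. Although Dcn and Lum are neighbors on chromosome 10, decorin was abundant and lumican scarce in the same tumor cells.

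Bgn encodes biglycan, a fibril-binding proteoglycan that also acts on Toll-like receptors. The level of Bgn was 3781 CPM (3586 to 3984) in fibroblast-like cells, 1942 CPM (1716 to 2189) in pericyte-like cells and 172 CPM (17 UMIs, 47.1% of them in 1 cell) in endothelial-like cells. Among tumor cells Bgn was at 69.6 CPM (65.0 to 74.5) in the Col3a1-high and 26.8 CPM (25.5 to 28.2) in the Col3a1-low state. T and NK-like cells (10.1 CPM, 4.37 to 19.9) and myeloid-like cells (6.22 CPM, 5.03 to 7.59) shared the lowest place within intervals. Fibroblast-like and pericyte-like cells were thus above both tumor states.

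**Figure D1:**
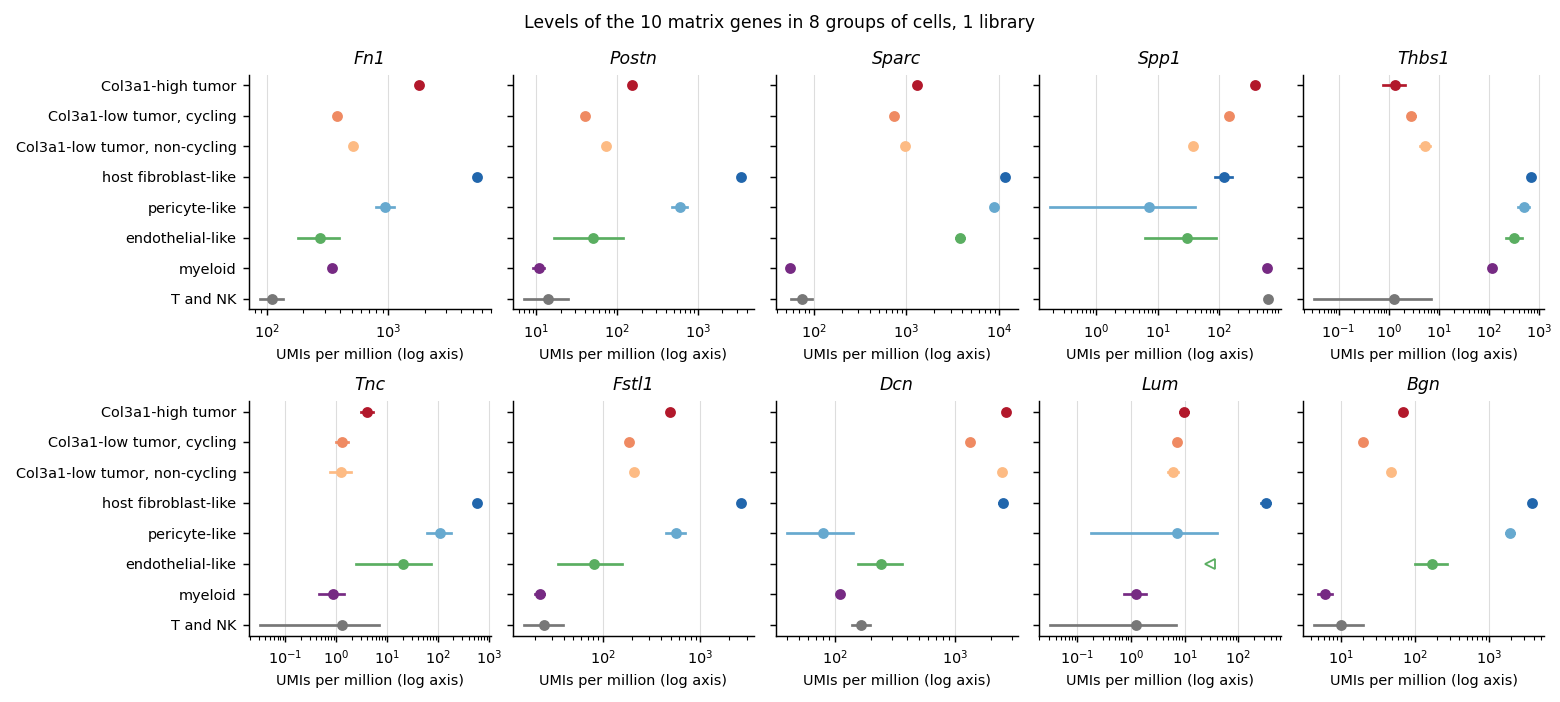
Levels of the 10 genes in CPM on a log axis by cell group, with points for the summed UMIs of a group and bars for exact 95% Poisson intervals. Fn1, Sparc, Postn, Tnc, Fstl1, Thbs1, Lum and Bgn were highest in fibroblast-like cells (for example Bgn at 3781 CPM), whereas Dcn was at 2683 CPM in Col3a1-high tumor cells and Spp1 at 583 CPM in myeloid-like cells.

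Shares of cells with a UMI depend on depth, so each cell was also thinned to 1000 UMIs. Thinning left out 6 fibroblast-like, 1 myeloid-like and 20 T and NK-like cells and 0 tumor cells. After thinning, Dcn was found in 76.7% of Col3a1-high, 64.6% of Col3a1-low, 72.2% of fibroblast-like, 12.6% of myeloid-like and 16.5% of T and NK-like cells. Without thinning the Dcn shares were 98.5%, 98.9%, 92.9%, 63.2% and 57.8% in the same order. Decorin was thus found in most tumor and fibroblast-like cells, and its myeloid-like share after thinning was below that of T and NK-like cells. For Fn1 the thinned shares were 69.6% of Col3a1-high, 31.7% of Col3a1-low, 91.7% of fibroblast-like, 22.6% of myeloid-like and 8.66% of T and NK-like cells, and without thinning 98.5%, 96.3%, 92.9%, 67.3% and 36.1%. Besides fibronectin, Thbs1 and Spp1 also had thinned myeloid-like shares above those of T and NK-like cells, and Bgn was level with them (0.826% and 0.787%). For Thbs1 these shares were 10.6% of myeloid-like and 30.6% of fibroblast-like cells, and 0 of 404 Col3a1-high cells, which allows up to 0.743% by the limit of 3 cells, and 0 of 127 T and NK-like cells, which allows up to 2.36%. Unthinned, Thbs1 was found in 32.3% of myeloid-like, 52.4% of fibroblast-like, 3.96% of Col3a1-high and 0.680% of T and NK-like cells.

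For Spp1 the thinned share was 17.7% of myeloid-like cells, 10.1% of Col3a1-high cells and 8.66% of T and NK-like cells (unthinned 43.4%, 37.9% and 23.1%). Osteopontin was therefore spread over more myeloid-like cells than T and NK-like cells, although the 2 pooled levels were alike. The thinned share of Postn was 80.6% in fibroblast-like and 10.6% in Col3a1-high cells against 3.15% in T and NK-like cells (unthinned 88.1%, 36.1% and 6.12%). Bgn showed the same contrast, with 83.3%, 4.95% and 0.787% (unthinned 90.5%, 34.7% and 5.44%). Periostin and biglycan were thus found in most fibroblast-like cells and few tumor cells at equal depth. For Lum the thinned share was 25.0% of fibroblast-like cells and 0.495% of Col3a1-high cells, which is no more than the 0.787% of T and NK-like cells (unthinned 57.1%, 6.19% and 0.680%).

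The comparison of Col3a1-high with Col3a1-low tumor cells addressed whether matrix genes differ between states of the injected carcinoma cells. Fibronectin, periostin, osteopontin, tenascin C, follistatin-like 1 and biglycan were at least 2-fold higher in the Col3a1-high state, while osteonectin, decorin and lumican rose less and thrombospondin 1 was lower. At least 2-fold higher were 6 of the 10 genes against 8.33% of the 12759 genes tested, and at least 2-fold lower was 1 of the 10 against 5.5%. The median ratio was 2.57 over the 10 genes and 1.09 over all genes tested. Fn1 had the largest ratio, 4.39 (4.31 to 4.47), and is among the leading genes of the Col3a1-high cluster, so its ratio is a description. The ratio was 3.19 (3.01 to 3.38) for Postn and 3.17 (2.17 to 4.58) for Tnc. For Bgn it was 2.60 (2.39 to 2.82) and for Fstl1 2.54 (2.46 to 2.62). Dcn (1.66, 1.64 to 1.68), Sparc (1.65, 1.62 to 1.68) and Lum (1.42, 1.15 to 1.74) stayed under 2-fold with intervals above 1. Fn1, Postn, Sparc, Fstl1, Dcn and Bgn had a ratio of at least 1.48 under each alternative that recomputed it, up to 6.74 for Postn and 2.54 for Dcn when tumor cells were ranked by Col3a1. Tnc had no ratio under 2 of them and otherwise ran from 1.84 to 175, the last with T and NK-like levels subtracted. Lum was below 1 under 5 alternatives, among them 0.846 with the listed genes kept in the clustering and 0.772 after thinning, the latter from 2 Col3a1-high cells with a UMI.

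Osteopontin and thrombospondin 1 did not hold across ways of splitting the tumor cells. Spp1 had a ratio of 3.22 (3.11 to 3.35), with 15.6% of the Col3a1-high UMIs in 1 cell. This ratio was 0.357 when the listed genes entered the clustering, 0.335 when all matrix genes were left out of it, 0.827 with doublets kept, 0.938 with 20 principal components and 0.467 when the tumor cells were ranked by Col3a1. Thbs1 had a ratio of 0.386 (0.216 to 0.641) from 16 and 209 UMIs, and it was between 1.01 and 1.25 under 5 alternatives. The clustering gave only 2 tumor states under 5 of the alternatives, and the Col3a1-high state then held 734 to 817 cells in place of 404. Fn1 was between 2.79 and 2.92 under 4 of these 5, and Tnc between 1.84 and 2.04 under 4 of them. Fstl1 was lowest, at 1.68, with all matrix genes left out. Over all alternatives that recomputed the ratio, it stayed at least 2-fold under 19 of 24 for Fstl1. The same held under 19 of 22 for Tnc and 23 of 24 for Bgn.

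Cell cycle genes and depth moved with the tumor states. The 6 cell cycle markers, all with UMIs in each state, summed to 180 CPM in Col3a1-high, 180 CPM in non-cycling and 1638 CPM in cycling Col3a1-low cells, with median depths of 26250, 34904 and 53320 UMIs. Against the non-cycling Col3a1-low cells alone, Fn1 was 3.51-fold, Tnc 3.24-fold, Fstl1 2.35-fold and Postn 2.07-fold higher in Col3a1-high cells. Sparc (1.36-fold), Bgn (1.44-fold) and Dcn (1.07-fold) differed less, and Spp1 more, at 9.95-fold (9.10 to 10.9). Against the cycling cells the ratios were 4.76 for Fn1, 3.82 for Postn, 3.45 for Bgn, 2.01 for Dcn and 2.67 for Spp1. Between the Col3a1-low states, Bgn was 2.40-fold, Thbs1 1.89-fold, Dcn 1.87-fold and Postn 1.84-fold higher in non-cycling than in cycling cells, and the ratio for Spp1 was 0.268. The parts of cell cycle and depth in these ratios were not tested.

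**Figure D2:**
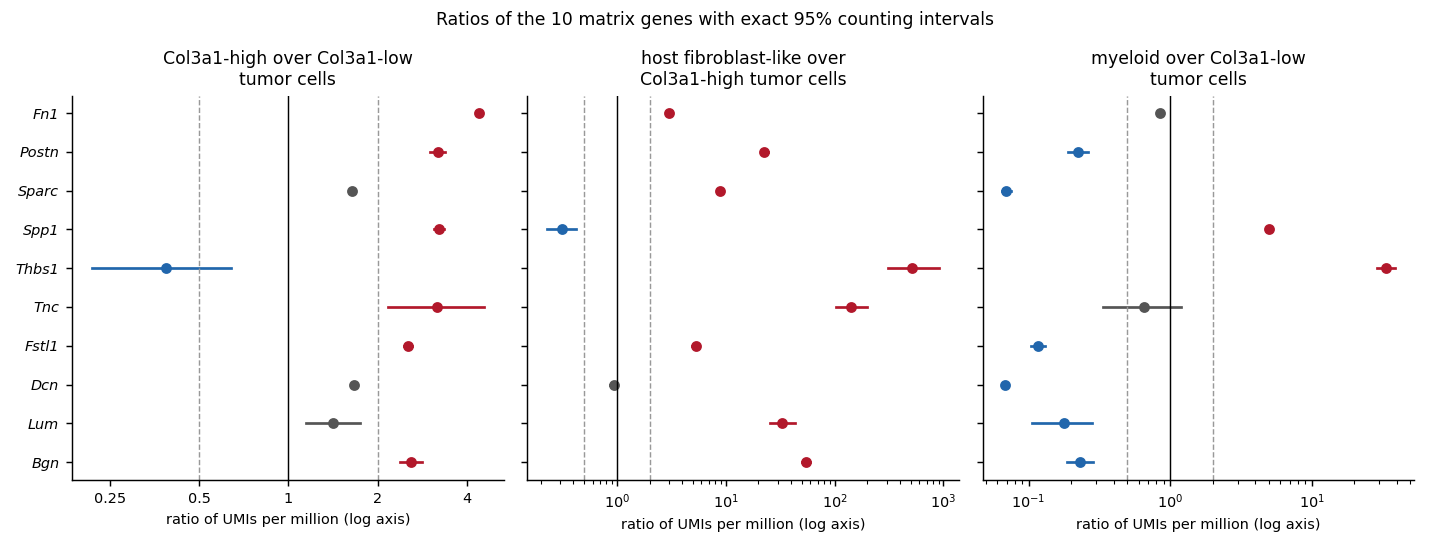
Ratios of CPM on a log axis for Col3a1-high over Col3a1-low tumor cells, fibroblast-like over Col3a1-high cells and myeloid-like over Col3a1-low cells, with exact 95% intervals and lines at 2-fold. Fn1 had the largest ratio in the first comparison (4.39), and Thbs1 stood at 517 in the second and at 33.4 in the third.

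A grading of the tumor cells by Col3a1 level, without clusters, gave 5 bins of 330 or 331 cells, chosen after the clusters had been seen. From the lowest to the highest bin Col3a1 ran from 142 to 4637 CPM by construction. Fn1 rose at every step, with 266, 299.6, 472, 803 and 2135 CPM, 8.04-fold in all. Dcn also rose at every step, with 953, 1291, 1690.1, 2206 and 4029.6 CPM, as did Sparc, with 602, 716, 829, 1053 and 1598 CPM. Bgn rose from 15.2 to 92.6 CPM in the same steady way, and Postn (20.3 to 253 CPM), Fstl1 (155 to 567 CPM) and Tnc (0.849 to 6.15 CPM) reached their highest levels in the top bin. Lum was at 1.88, 4.38, 7.78, 14.2 and 13.4 CPM, and the last 2 overlapped. Osteopontin and thrombospondin 1 had no steady course, with Spp1 at 167, 221, 101, 190.2 and 78.0 CPM and Thbs1 at 4.61, 2.58, 2.76, 3.04 and 1.89 CPM. Both were lowest in the top bin, where Thbs1 (1.08 to 3.07) overlapped the 3 bins below it. The share of cells from the cycling state fell from 74.9% to 17.6% and the median depth was 48172 UMIs in the lowest and 22688.5 UMIs in the highest bin. Their part in these gradients was not tested. Of the 404 cells with the highest Col3a1, 228 (56.4%) belonged to the Col3a1-high cluster.

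**Figure D3:**
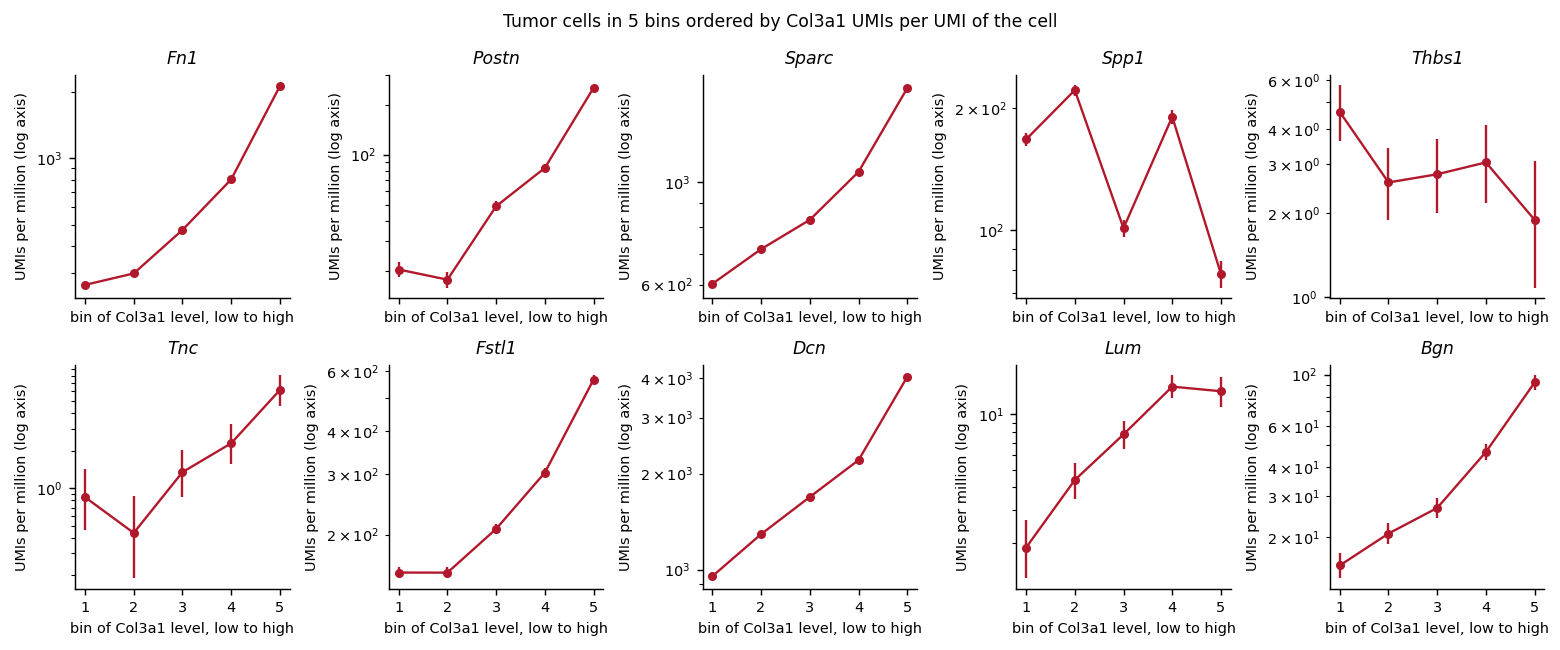
Level of each gene in CPM on a log axis in 5 bins of tumor cells ranked by Col3a1, with exact 95% Poisson intervals. Fn1 rose from 266 to 2135 CPM and Dcn from 953 to 4029.6 CPM, whereas Spp1 ended at 78.0 CPM in the top bin.

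Within a state, the genes differed in how many cells carried them. Cells were thinned to 10000 UMIs, which left 342 of the Col3a1-high cells and left out 62. Fn1, Sparc and Dcn were each found in 99.1% of these cells, and the 10% of cells richest in each held 33.3%, 30.8% and 31.4% of their UMIs. Fstl1 was similar, with 91.5% and 33.2%. Postn (25.4% of cells), Spp1 (24.3%) and Bgn (20.5%) were found in fewer, and the richest 10% of cells held 85.3%, 92.8% and 87.1% of their UMIs. The variance over the mean was 51.8 for Spp1, 25.2 for Postn, 24.4 for Dcn, 23.2 for Bgn, 18.5 for Fn1, 10.2 for Sparc and 4.98 for Fstl1. Only 13 T and NK-like cells were this deep, and of these 38.5% (13.9% to 68.4%) had Dcn, 15.4% (1.92% to 45.4%) Fn1, 15.4% Sparc, 7.69% Fstl1, 38.5% Spp1 and 0 of 13 Postn or Bgn, which allows up to 23.1% by the limit of 3 cells. Fibronectin, osteonectin and decorin were therefore found in more Col3a1-high than T and NK-like cells at this depth, at uneven levels, whereas the share for osteopontin was no higher and those for periostin and biglycan were near the limit. Over the 342 cells, which share 1 library, the rank correlation with Col3a1 was 0.560 for Fn1, 0.508 for Dcn, 0.448 for Fstl1, 0.368 for Sparc, 0.294 for Postn, 0.168 for Bgn and -0.178 for Spp1. In the non-cycling Col3a1-low cells it was 0.554 for Dcn, 0.408 for Fn1, 0.389 for Fstl1, 0.306 for Bgn, 0.305 for Postn and 0.296 for Sparc. In the cycling cells it was 0.425 for Fn1, 0.339 for Dcn, 0.331 for Sparc, 0.237 for Fstl1 and 0.0847 for Spp1. Genes with a mean under 0.5 UMIs were not correlated.

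Host fibroblasts are the textbook source of these proteins, and the comparison with Col3a1-high tumor cells set the carcinoma cells beside that profile. All genes other than Dcn and Spp1 were at least 2-fold higher in fibroblast-like cells, while decorin was close and osteopontin lower. At least 2-fold higher were 8 of the 10 genes against 22.8% of the 11100 genes tested, and at least 2-fold lower was 1 of the 10 against 11.3%. The median ratio was 14.2 over the 10 genes and 1.12 over all genes tested. Thbs1 had a ratio of 517 (312 to 918) and Tnc of 142 (103 to 197), both over tumor levels inside the T and NK-like intervals, so the size and order of these 2 are not fixed. The Thbs1 ratio ran from 82.3 to 11550 over the alternatives. Bgn was 54.3-fold (49.8 to 59.2), Lum 33.1-fold (25.5 to 43.0) and Postn 22.7-fold (21.1 to 24.4) higher. Sparc (8.89, 8.59 to 9.19), Fstl1 (5.30, 4.95 to 5.68) and Fn1 (3.05, 2.91 to 3.19) had smaller ratios. For Dcn the ratio was 0.935 (0.875 to 0.998), and it was between 1.07 and 1.20 under 6 alternatives. With its top cell left out of each group, an alternative chosen after seeing the data, Thbs1 was 319-fold higher, and after thinning at least 82.3-fold, against the floor of 3 counts that stands for 0 UMIs. The Spp1 ratio of 0.315 (0.228 to 0.423) rested on 44 fibroblast-like UMIs. It was 0.0848 without the top cells and 1.46 when tumor cells were ranked by Col3a1.

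Against Col3a1-low tumor cells the fibroblast-like levels were 448-fold higher for Tnc, 199-fold for Thbs1, 141-fold for Bgn, 72.4-fold for Postn and 47.0-fold for Lum. For Tnc, Thbs1 and Lum these tumor levels lay inside the T and NK-like intervals. Sparc (14.6-fold), Fstl1 (13.5-fold) and Fn1 (13.4-fold) followed, and Dcn was 1.55-fold higher. Pericytes wrap small vessels and share matrix genes with fibroblasts, and the 12 pericyte-like cells had lower levels of the 10 genes, with Sparc and Thbs1 closest. Fibroblast-like over pericyte-like ratios were 31.5 for Dcn, 5.79 for Fn1, 5.78 for Postn, 5.28 for Tnc, 4.59 for Fstl1 and 1.95 for Bgn. The ratio was 1.32 for Sparc and 1.37 (1.05 to 1.81) for Thbs1. Lum rested on 1 pericyte-like UMI, with a ratio of 45.0 (7.92 to 1791). Decorin, lumican and biglycan thus parted in pericyte-like cells, where biglycan alone stayed high.

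Macrophages and monocytes outnumber fibroblasts in many transplanted tumors, and they were compared with Col3a1-low tumor cells. Thrombospondin 1 and osteopontin were higher in myeloid-like cells, fibronectin was close, tenascin C was not apart within its interval, and the other 6 genes were lower. At least 2-fold higher were 2 of the 10 genes against 22.5% of the 13407 genes tested, a share near the background, and at least 2-fold lower were 6 of the 10 against 27.9%. The median ratio was 0.228 over the 10 genes and 0.854 over all genes tested. Thbs1 was 33.4-fold higher (29.0 to 38.8), over a tumor level inside the T and NK-like interval, and its ratio ran from 32.6 to 194, the last after thinning. Spp1 was 4.99-fold higher (4.84 to 5.15), a ratio that ran from 2.70 to 13.6 over the alternatives that gave one. With the T and NK-like level subtracted the Spp1 call was lost, since the myeloid-like level fell below 0, and the 13.6 came from subtracting only the T and NK-like cells with few Spp1 UMIs, a limit set on Spp1 itself. Fn1 had a ratio of 0.852 (0.827 to 0.878). The ratios of Dcn (0.0687), Sparc (0.0697), Fstl1 (0.117), Lum (0.177), Postn (0.224) and Bgn (0.232) were all far below 1. Tnc rested on 13 myeloid-like UMIs and had a ratio of 0.658 (0.335 to 1.19).

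Free RNA from lysed cells gives UMIs in droplets of cells that do not express a gene, and T and NK-like cells served to read it. Their level was not adjusted for depth, with medians of 4498 UMIs in T and NK-like and 9004 UMIs in myeloid-like cells. The summed MC38 list was also higher in T and NK-like (197 CPM) than in myeloid-like cells (122 CPM). The T and NK-like level is therefore no exact background for deeper groups. In 8 of the 10 genes the myeloid-like level was at or below that of T and NK-like cells, which left Fn1 and Thbs1 above it, against 52.7% of the 11514 genes tested. Tnc, among the 8, had fewer than the 20 UMIs set for a test. Spp1 is among the 8 through the 4 T and NK-like cells that held 420 of its 477 UMIs there, so its place depends on them. These 4 cells had a median of 19850 UMIs, against 4497 in the other T and NK-like cells. Ncr1 was at 424 against 61.7 CPM, Nkg7 at 1529 against 2822 CPM and Lyz2 at 12.8 against 634 CPM. Whether their Spp1 is free RNA was not tested, so Spp1 is no clear reading of it. Fn1 was 3.16-fold (2.55 to 3.95) higher in myeloid-like than in T and NK-like cells, and Thbs1 90.7-fold (16.3 to 3585) from 1 T and NK-like UMI. For Spp1 the ratio was 0.967 (0.882 to 1.06), for Dcn 0.669 (0.560 to 0.805) and for Sparc 0.743 (0.570 to 0.985). A single source of free RNA would keep its genes in a fixed ratio, so UMIs per Dcn UMI were also read. Sparc had 0.5003 UMIs per Dcn UMI in myeloid-like cells and 0.450 (0.325 to 0.617) in T and NK-like cells, against 0.488 in Col3a1-high and 0.493 in Col3a1-low tumor cells. In fibroblast-like cells the same quotient was 4.64. Fn1 had 3.13 UMIs per Dcn UMI in myeloid-like cells, 0.667 in Col3a1-high, 0.253 in Col3a1-low and 0.664 in T and NK-like cells. Postn had 0.0959 in myeloid-like and 0.0840 in T and NK-like cells, against 0.0563 in Col3a1-high and 0.0294 in Col3a1-low cells. In the same order Bgn had 0.0561 and 0.0611 against 0.0260 and 0.0166, and Fstl1 0.203 and 0.153 against 0.182 and 0.120. Lum had 0.0111 in myeloid-like cells against 0.00367 and 0.00430 in the tumor states. The quotient thus stayed at the tumor value for osteonectin but not for fibronectin, periostin, biglycan or lumican in myeloid-like cells, and the source of these UMIs was not tested.

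Osteopontin, thrombospondin 1 and fibronectin were unevenly spread over the myeloid-like subsets. Of the subsets shown, Spp1 was highest in the Ung and Hells-led one, at 744 CPM (697 to 794), where 1 cell held 42.0% of its UMIs. The Lyz1 and Vcam1-led subset (545 CPM, 520 to 572) and monocyte-like cells (519 CPM, 482 to 558) did not differ beyond their intervals. Cycling macrophages followed with 278 CPM, the Gm26532 and Fosb-led subset with 184 CPM, Cxcl9 macrophage-like cells with 86.7 CPM (75.8 to 98.7) and the Retnla and Lyve1-led subset with 33.9 CPM (11.02 to 79.2), and the last 2 overlapped. Osteopontin thus differed widely between the subsets shown.

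Thrombospondin 1 followed another order. Of the subsets shown, Thbs1 was highest in monocyte-like cells (257 CPM, 231 to 285). The Lyz1 and Vcam1-led subset had 178 CPM (163 to 193) and the Gm26532 and Fosb-led subset 141 CPM (125 to 158). Retnla and Lyve1-led (67.9 CPM, 32.5 to 125), Cxcl9 (43.7 CPM), cycling (43.5 CPM) and Ung and Hells-led (41.2 CPM) macrophages were lower, and these 4 overlapped one another. Thrombospondin 1 was thus higher in monocyte-like cells than in each macrophage subset shown. Fn1 was highest in the 22 Retnla and Lyve1-led cells, at 1669 CPM (1467 to 1892), with 26.0% of 246 UMIs in 1 cell, and next in monocyte-like cells (601 CPM, 561 to 643). The Retnla and Lyve1-led cells also had Col3a1 at 400 CPM, with 72.9% of its UMIs in 1 cell, against 119 CPM in all myeloid-like cells, and Dcn at 197 CPM (132 to 283) against 111 CPM. The Lyz1 and Vcam1-led cells had 382 CPM (360.3 to 404), the Ung and Hells-led 370 CPM (337 to 406), cycling 324 CPM (303 to 346), the Gm26532 and Fosb-led 197 CPM and Cxcl9 macrophage-like cells 153 CPM (139 to 169). The Lyz1 and Vcam1-led, Ung and Hells-led and cycling subsets overlapped in Fn1 from neighbor to neighbor. All of these Fn1 levels were above the 110.0 CPM of T and NK-like cells. The 47 granulocyte-like cells, outside the pooled myeloid-like group, had Thbs1 at 486 CPM (301 to 743, 21 UMIs) and Fn1 at 625 CPM (412 to 910, 27 UMIs). They were not ranked, because their median was 713 UMIs and Dcn was also at 625 CPM there, against 166 CPM in T and NK-like cells.

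**Figure D4:**
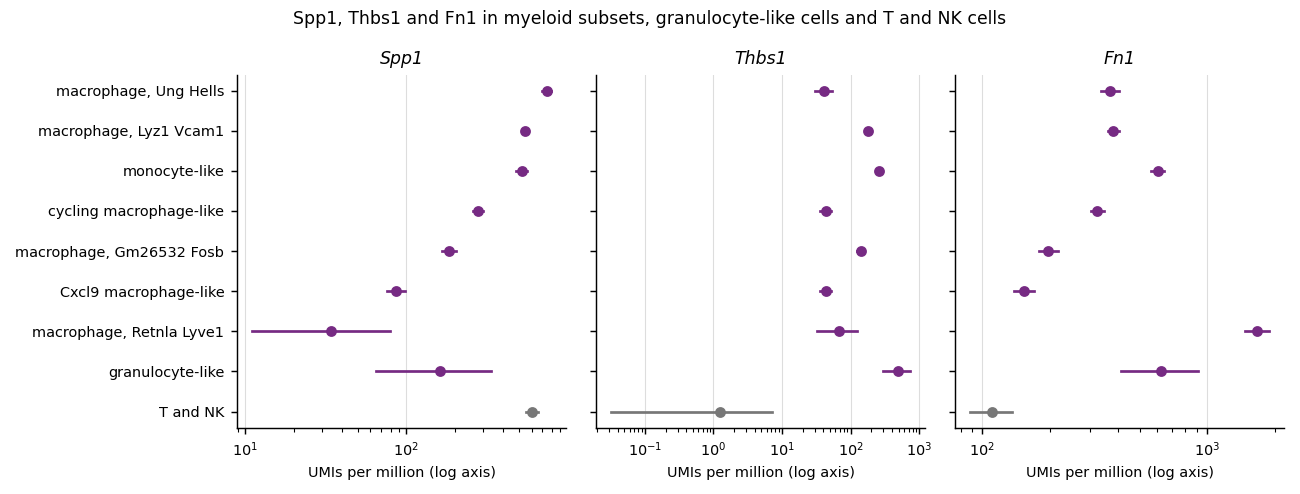
Levels of Spp1, Thbs1 and Fn1 in CPM on a log axis in myeloid-like subsets, granulocyte-like cells and T and NK-like cells, with exact 95% Poisson intervals. Spp1 was at 744 CPM in the Ung and Hells-led subset, Thbs1 at 257 CPM in monocyte-like cells and Fn1 at 1669 CPM in the Retnla and Lyve1-led subset.

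The share of a gene's UMIs that lay in each group depends on how many cells of that group were captured as well as on the level. Col3a1-low cells held 65.6% of all UMIs of the kept cells, myeloid-like cells 16.6%, Col3a1-high cells 13.0% and fibroblast-like cells 0.399%. For 7 of the 10 genes, against 82.9% of 14153 genes, the largest part was in Col3a1-low cells, for Spp1 and Thbs1 in myeloid-like cells and for Tnc in fibroblast-like cells. The largest part was in Col3a1-high cells for 0 of the 10 genes, against 0.438% of 14153 genes, and 13 of the alternatives gave between 1 and 5. Decorin UMIs were 71.7% from Col3a1-low and 23.7% from Col3a1-high cells, and 0.679% from fibroblast-like cells. Thbs1 UMIs were 70.5% from myeloid-like cells, and Spp1 UMIs 41.8% from myeloid-like, 33.0% from Col3a1-low and 21.1% from Col3a1-high cells. Tnc UMIs were 54.2% from the 42 fibroblast-like cells, which also supplied 31.7% of the Bgn, 19.2% of the Postn, 16.5% of the Lum and 10.1% of the Thbs1 UMIs. Fn1 came mostly from tumor cells, with 43.9% in Col3a1-low and 38.3% in Col3a1-high cells. Of the Sparc and Fstl1 UMIs, 66.8% and 59.8% lay in the Col3a1-low and 21.8% and 30.2% in the Col3a1-high state. In this dissociated library, then, the 2 tumor states together held most UMIs of each listed gene but Thbs1 and Tnc, which is 8 of the 10 against 83.4% of all genes, a share near the background. They held 78.6% of all UMIs, a share that only Dcn (95.3%), Fstl1 (89.97%), Sparc (88.6%) and Fn1 (82.2%) passed. The few fibroblast-like cells held a large part of those of tenascin C and biglycan.

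**Figure D5:**
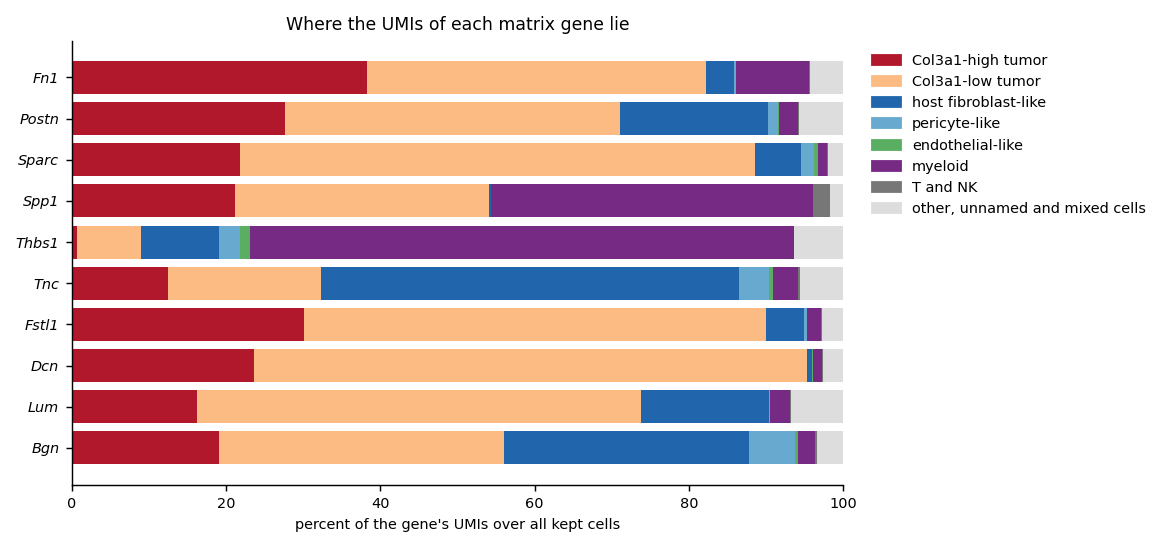
Share of each gene's UMIs over all kept cells, in percent, that lay in each cell group. Col3a1-low tumor cells held 71.7% of the Dcn UMIs, myeloid-like cells 70.5% of the Thbs1 UMIs and fibroblast-like cells 54.2% of the Tnc UMIs.

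Other matrix genes were read from fixed lists in the same 3 comparisons, as a setting for the 10 genes. Between the tumor states, 7 of 21 tested other matricellular genes were at least 2-fold higher in Col3a1-high cells and 0 lower, with a median ratio of 1.28. The largest ratios were those of Sparcl1 (4.82), a relative of Sparc, Fbln5 (4.65) and Tgfbi (2.39), and the smallest those of Lgals1 (0.813), Fbln1 (0.700) and Thbs2 (0.662). Of the other small leucine-rich proteoglycans 3 of 5 tested were higher and 0 lower, with a median of 7.01. Aspn, which encodes asporin, was at 44.0 against 1.15 CPM, a ratio of 38.3 (29.8 to 49.9), and Ogn, which encodes osteoglycin, at 73.2 against 3.20 CPM, a ratio of 22.9 (19.6 to 26.8). Both are, with Sparcl1, among the leading genes that set this cluster apart, so their ratios are a description. Omd followed at 7.01, Podnl1 at 1.26 and Prelp at 0.810. Among receptors 4 of 20 were higher and 0 lower (median 1.29), with Itgb5 (2.39), Tlr4 (2.14) and Lrp1 (1.91) largest and Sdc1 (0.774), Cd44 (0.723) and Met (0.680) smallest. Matrix enzymes had 6 of 19 higher and 1 lower (median 1.60), with the crosslinker Loxl1 (7.14) and Bmp1 (2.52) among the higher genes and Mmp9 (0.687), Loxl2 (0.568) and Plaur (0.421) at the low end. Collagens without Col3a1, which set the state, split, with 2 of 13 higher and 3 lower (median 1.495). They ran from Col5a2 (3.14) and Col5a1 (2.01) to Col4a1 (0.852), Col1a2 (0.332) and Col1a1 (0.287). The Col1a2 level in Col3a1-high cells, 6.70 CPM, lay inside the T and NK-like interval (3.56 to 18.2). All genes tested had 1063 of 12759 higher and 702 lower. Divided by their median ratio, 792 were higher and 863 lower, which moved the higher share of these calls from 60.2% to 47.9%, while 6 and 1 of the 10 genes were called as before.

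In fibroblast-like over Col3a1-high cells, 17 of 23 tested matricellular genes were higher and 3 lower (median 13.3). Thbs4 (2454, 829 to 11987, from 226 and 3 UMIs), Cthrc1 (1975) and Ccn2 (1634) had the largest ratios, and Fstl3 (0.290), Lgals3 (0.277) and Sparcl1 (0.184) the smallest. The proteoglycans had 6 of 7 higher and 0 lower (median 6.80), including Prelp (214), Aspn (6.80) and Ogn (3.72). Sparcl1 was thus higher in Col3a1-high tumor cells than in either other group, whereas asporin and osteoglycin were higher still in fibroblast-like cells. Receptors had 8 of 18 higher and 0 lower (median 1.57), from Lrp1 (8.38), Itgb5 (3.48) and Sdc1 (2.28) to Sdc4 (1.06), Cd47 (0.826) and Met (0.804). Among enzymes 12 of 18 were higher and 0 lower (median 4.47), from Lox (1599.6), Mmp3 (472) and Timp3 (238) to Mmp9 (1.05), Timp2 (0.639) and Tgm2 (0.598). Of 14 collagens 10 were higher and 0 lower (median 5.08). Col1a1, Col1a2 and Col5a1 are in the marker list that named the fibroblast-like cells, so their part in this count is no finding. Col1a2, Cthrc1 and Lox are among the leading genes of that cluster, so their ratios are a description. Col12a1 was at least 3192-fold higher, with 294 UMIs against 0 and a floor of 3 counts over the group. The ratio was 1881 for Col1a2, 1208 for Col14a1, 1.77 for Col4a1, 1.54 for Col6a1 and 0.887 for Col4a2. Col1a2 in Col3a1-high cells (6.70 CPM) lay inside the T and NK-like interval (3.56 to 18.2), so the size of its ratio is not fixed. All genes tested had 2535 of 11100 higher and 1258 lower. Divided by their median ratio, 2171 were higher and 1645 lower, which moved the higher share of these calls from 66.8% to 56.9%.

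Myeloid-like over Col3a1-low cells gave the opposite picture in most lists. Of 22 matricellular genes 3 were higher and 12 lower (median 0.326), from Tgfbi (104), Lgals3 (3.22) and Emilin1 (1.60) to Fstl3 (0.108), Fbln1 (0.0809) and Ccn4 (0.0666). Of 5 proteoglycans 0 were higher and 4 lower (median 0.214), among them Ogn (0.283) and Prelp (0.106). Receptors were the exception, with 10 of 22 higher and 5 lower (median 1.06). The integrin subunits Itga9 (163) and Itga4 (138), which bind osteopontin and fibronectin, and the thrombospondin receptor Cd36 (158) had the largest ratios, and Sdc1 (0.170), Met (0.148) and Itgb8 (0.113) the smallest. Enzymes had 5 of 20 higher and 9 lower (median 0.573), from Mmp13 (264), Mmp12 (132) and Plau (128) to Bmp1 (0.162), Pcolce (0.0742) and Timp1 (0.0731). Among collagens 1 of 14 was higher and 12 lower (median 0.139), with Col14a1 at 69.2, Col1a2 at 0.434 and Col5a2 at 0.206, and with Col6a2 (0.106), Col4a2 (0.105) and Col4a1 (0.0987) lowest. All genes tested had 3010 of 13407 higher and 3734 lower. Divided by their median ratio, 3515 were higher and 3094 lower. This turned the balance, with the higher share of these calls at 44.6% before and 53.2% after. The counts among the 10 genes were 2 higher and 6 lower both ways.

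The genes most like each of the 10 were found by Pearson correlation of log2(CPM + 1) over 14 groups of at least 30 cells, among 11902 genes. The groups share the library and its free RNA, so the values are descriptions. Fstl1 was most like Col3a1 (0.990), Crtap (0.977) and Pcolce (0.968), the last 2 being genes of collagen maturation. Sparc was nearest to Aebp1 (0.992), Fam114a1 (0.984) and Prnp (0.981), and Dcn to Phlda3 (0.987), Hspb8 (0.987) and Col6a1 (0.983). Postn had Col5a2 (0.973), Bgn (0.964) and Fstl1 (0.963) as its nearest genes, and Bgn had Postn (0.964), Col5a2 (0.962) and Aebp1 (0.956). Periostin and biglycan were thus among each other's 3 nearest genes. Lum ran with Antxr1 (0.983), Zfhx4 (0.974) and Dpt (0.974), and Tnc with Mgp (0.972), Sod3 (0.950) and Acta2 (0.943). Fn1 was nearest to Ltbp3 (0.904), Lrrc17 (0.885) and Aspn (0.883). Thrombospondin 1 and osteopontin had other neighbors, with 2510009E07Rik (0.909), St3gal5 (0.908) and Krt80 (0.907) for Thbs1 and with Capg (0.817), Gm27003 (0.778) and Metrnl (0.764) for Spp1. Between the 10 genes the lowest correlation was that of Spp1 with Sparc (-0.623) and the highest that of Postn with Bgn (0.964).

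The data are 1 library of 5 pooled tumors, so no difference has a replicate check. The Col3a1-high state depended on the clustering, and the ratios of Spp1 and Thbs1 between tumor states changed direction with it. Fibroblast-like, pericyte-like and endothelial-like cells were few, and shares of UMIs are those of a dissociated sample. Counts of RNA at the 3′ end do not measure secreted protein.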

How the data were processed

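The values deposited by the authors are unnormalized UMI counts of 1 library of 5 pooled tumors, made with Cell Ranger (5.0.1 by the file header, V3 by the methods) on GRCm38/mm10. Cells needed 200 genes or more and a mitochondrial share of 20% or less, which removed 667 cells. For each cell a doublet score was the part of its nearest neighbors that were artificial doublets (2 made per real cell). The 197 highest-scoring cells (4.25%) were removed at a rate of 0.8% per 1000 cells. Each cell was scaled to 10000 UMIs and the values were taken to logs. Clusters came from 2000 variable genes (not the 10 described), 30 principal components and Leiden partition, at 0.5, of a graph of shared neighbors (20 nearest). A second clustering of tumor cells (resolution 0.3) and of myeloid-like cells (0.8) used 1000 variable genes and 15 components, and shallow clusters, with a median under 0.333 of the library's, were pooled and clustered again at 1.

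To take the name of a list, a cluster needed 3 or more of the listed markers with at least 10 UMIs and raised at least 2-fold. The limit was 5-fold outside the myeloid and T and NK lists, and fibroblasts needed 5 of 9 markers. Deep myeloid-like clusters needed 5 of the 8 myeloid markers. Tumor clusters had the summed MC38 list at least 10-fold above myeloid-like cells. Macrophage clusters without a list of their own are called by leading genes. A myeloid-like subset and a gene of the enzyme list are not reported here. The naming rule had 3 forms. The first placed a tumor cluster among fibroblasts, the second gave large fibroblast groups under some alternatives, and each form was made after clusters and levels had been seen. The settings of the second clusterings, the Col3a1 bins, thinning to 10000 UMIs, the Spp1 limit in T and NK-like cells, the Xist values, the separate pericyte-like group and the motifs were also chosen after seeing the data, the motifs after the promoter sequences. The 10 genes and the gene lists were chosen with earlier results of these data known.

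A level is the summed count per 1000000 UMIs (CPM). Genes with at least 20 UMIs over both groups were tested, and called means a ratio of at least 2. A count of 0 was set to a floor of 3 counts. From each list the 3 genes with the largest and the 3 with the smallest ratio among those with at least 100 UMIs are named, and for each of the 10 genes the 3 most like it. The medians of all log2 ratios were 0.13, 0.17 and -0.23 in the 3 comparisons. Calculations were tested on simulated counts. Alternatives changed the clustering genes, filters, doublet removal, components, resolution, seed, the setting of Col3a1 status, averaging, depth, background, scaling, fold and minimum count. Tools were matplotlib 3.10.9, leidenalg 0.10.2, scikit-learn 1.9.0, igraph 0.11.9, pandas 2.3.3, scipy 1.17.1, numpy 2.4.6 and Python 3.11.15.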

Additional observations from a re-analysis of the deposited data

How the results depend on the processing

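No paired analysis was possible because there was 1 library. Results were recomputed under 20 planned settings and 8 chosen after seeing the data. Of 163 counts, 130 were within 1.5 times the reported count. Of 697 ratios, 380 stayed inside the reported interval, 295 lay outside it with the same direction and 11 called ratios changed direction, and 666 stayed on their side of 2-fold. A further 11 under 2-fold crossed 1, those of Lum between the tumor states and of Dcn in fibroblast-like over Col3a1-high cells. Of 960 levels, 560 stayed inside their intervals. The causes of the changes below were not tested.

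The Spp1 ratio of Col3a1-high over Col3a1-low cells (3.22) was 0.357 with the 10 genes kept in the clustering, 0.335 with all matrix genes left out, 0.827 with doublets kept, 0.938 with 20 principal components and 0.467 with tumor cells ranked by Col3a1, which also turned Spp1 in fibroblast-like over Col3a1-high cells from 0.315 to 1.46. The Thbs1 ratio of the tumor states (0.386) was 1.18 with the 10 genes kept, 1.11 with all matrix genes left out, 1.20 with a mitochondrial limit of 10%, 1.01 without a limit and 1.25 with tumor cells subclustered at 0.2.

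The 6 genes at least 2-fold higher in the Col3a1-high state became 1 at 4-fold and 3 with subclustering at 0.2. The 1 gene lower there became 0 with a mitochondrial limit of 10% or none, at least 500 genes per cell, 3000 variable genes, another seed, thinning to 1000 UMIs, a 4-fold limit, subclustering at 0.2 or 0.5, Malat1-led cells added, or subtraction of T and NK-like cells with few Spp1 UMIs. The 1 gene lower in fibroblast-like cells became 0 with doublets kept, 20 principal components, ranking by Col3a1, subtraction of T and NK-like levels, 4-fold or subclustering at 0.2. The 2 genes higher in myeloid-like cells became 1 with T and NK-like levels subtracted, and the 8 higher in fibroblast-like cells were never moved by over 1.5 times. The 0 genes with their largest part in Col3a1-high cells became 3 with the 10 genes kept or all matrix genes left out, 5 with a mitochondrial limit of 10% or none, 1 with 500 genes, 3000 variable genes, another seed, ranking, the mean over cells, thinning, or subtraction of few-Spp1 cells, 2 with T and NK-like levels subtracted, and 4 with subclustering at 0.2. The largest part was not run under scaling, fold limits or minimum counts, which do not apply to it, and subtraction gave no ratio where a level fell to 0 or below.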
